A study of Drosophila melanogaster with 12 samples.

Results

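The 49 genes described here lie on chromosome 4 of Drosophila melanogaster, the small "dot" chromosome, and were taken from a list of named genes of that chromosome, matched by symbol. They are 49 of the 16770 genes in the table, which held 54 further chromosome 4 genes. The rule itself uses position and symbol and no measured value, although the genes were proposed with earlier results of these data known. By their RefSeq positions, in the Release 6 (dm6) assembly, all 49 were found on chromosome 4, between chr4:32478 (the start of PlexB) and chr4:1271759 (the end of Caps). RefSeq lists 3 of them under another symbol, Caps as Cadps, Thd1 as Tdg and CG32850 as Rnf11.

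Chromosome 4 of the fly is largely heterochromatic along its length, yet it carries active genes set among repeats. Heterochromatin is marked by methylation of lysine 9 on histone H3, which the protein HP1a binds. Egg (Eggless, the fly SETDB1) is an enzyme that adds this mark, and it is known as a main writer of it on chromosome 4, where the chromosome-specific protein POF also covers genes.

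Binding of Egg was measured by chromatin immunoprecipitation and sequencing (ChIP-seq) in OSCs, a cultured line of ovarian somatic cells. Cells were fixed with formaldehyde on day 4 of a knockdown of EGFP (siEGFP, the control target) or of Egg itself (siEgg), and each condition had an Egg ChIP, made with an antibody to Egg, and an input, the DNA before precipitation. The labels list 12 samples in 8 groups, and the 4 siPiwi and siWde libraries among them were not analysed here. The 4 groups used each have 2 labelled samples, but the table has 1 column per group with no replicate number, so a column, called a library from here on, may be 1 sample or a pool.

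There was therefore no replicate error. Each value is given with a 95% interval that covers counting error only, each comparison is between libraries, and no p-value was computed. Nothing in the labels says whether the samples came from separate cultures. DNA reads carry no transcript levels, so neither the cell type nor the knockdown could be checked, and fewer cells with Egg and less Egg per cell cannot be told apart.

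The libraries held 2183061 (siEGFP input), 2293964 (siEgg input), 1796866 (siEGFP ChIP) and 1698148 (siEgg ChIP) reads, recovered from the deposited values, of which 33.6% to 36.8% fell in the table. A member had a median of 62 input and 73 ChIP reads in siEGFP and of 54 and 56 in siEgg. The members were long genes with more reads than most, since the median over all genes tested was 27 reads in each input and 20 in each ChIP. Values are RPKM, reads scaled to transcript length and to library depth, and enrichment is the log2 ratio of ChIP to input after 0.6 RPKM was added to each. A gene was called enriched, or depleted, when the ratio was at least 2-fold and its interval excluded equality. All 49 members had enough reads to be tested, of 12634 genes tested in all.

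In control cells, 12 of the 49 members were enriched for Egg (24.5%), against 5.79% of all genes tested. None of the 49 was depleted, against 7.73% of all genes. The median log2 ratio was 0.34 over the members, with a range of -0.99 to 2.83, and -0.29 over all genes tested. The enrichment was uneven: 23 members had an interval wholly above 0 (8.59% of all genes did), 5 had one wholly below 0 (18.6% of all genes), and the others could not be told from the input at this depth. Over all members together, 3945 input and 4611 ChIP reads gave a log2 ratio of 0.51 (0.44 to 0.57). Of the 12 enriched members, 6 had too few reads to stay in when 20 reads were required in each input, and quantile scaling ended the calls of gw and mGluR. A larger pseudocount ended those of 4E-T, Caps, gw and mGluR.

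**Figure D1:**
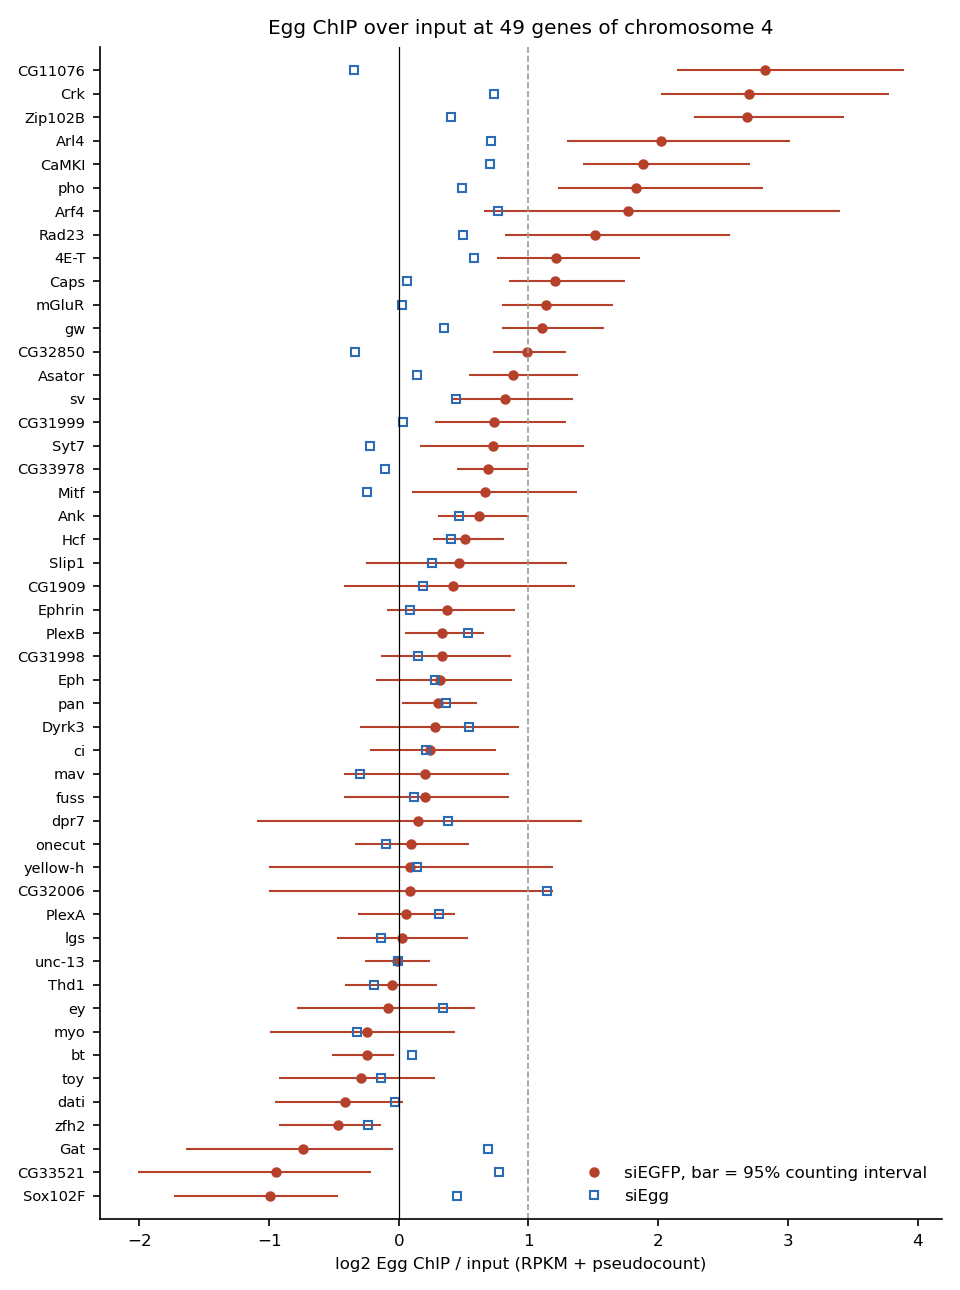
Log2 ratio of Egg ChIP to input for each of the 49 members, in order of the siEGFP value, with the 95% counting interval of that value as a bar (red, siEGFP; blue squares, siEgg); the dashed line marks a 2-fold ratio. The 12 enriched members stand at 1.11 to 2.83 in siEGFP and between -0.35 and 0.77 in siEgg.

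CG11076, Crk and Zip102B had the highest ratios of the 49. CG11076, at chr4:1029711-1031757, had 14 input and 90 ChIP reads in siEGFP and 28 and 16 in siEgg. Its enrichment was 7.09-fold (4.42 to 14.9) in control cells, a log2 ratio of 2.83, and its siEgg ratio was -0.35. CG11076 overlaps ATPsynbeta, which encodes the beta subunit of the mitochondrial ATP synthase and is not among the 49. ATPsynbeta had 28 input and 80 ChIP reads in siEGFP and a log2 ratio of 1.70, so reads of this pair may have been assigned to either gene. Crk, at chr4:210224-213165, encodes an adaptor with SH2 and SH3 domains that links tyrosine kinases to their effectors. It had 14 input and 83 ChIP reads in siEGFP and 9 and 12 in siEgg. Its ratio was 6.50-fold (4.06 to 13.7) in control cells. Zip102B, a zinc transporter of the ZIP family at chr4:310930-314087, had 31 input and 182 ChIP reads in siEGFP and 42 reads in each siEgg library. Its ratio was 6.44-fold (4.85 to 10.8). For all 3 genes the siEGFP ChIP was the one high library, and the intervals of the 3 ratios overlapped, so their order is not resolved.

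The median log2 ratio of the kinases, adaptors, small GTPases and cytoskeletal proteins was 1.32. In control cells 4 of these 8 members were enriched (50%, against 5.79% of all genes). Besides Crk, these were Arl4 and Arf4, small GTPases of the ARF family that act in membrane traffic, and CaMKI, a kinase activated by calcium and calmodulin. Arl4 (chr4:177348-179389) had 16 input and 57 ChIP reads in siEGFP and 11 and 14 in siEgg, a log2 ratio of 2.02 (1.29 to 3.01) in siEGFP. CaMKI (chr4:445504-453947) had 28 and 95 reads in siEGFP and 33 and 42 in siEgg, a ratio of 1.89 (1.42 to 2.71). Arf4 (chr4:1124167-1125325), the shortest member, had 7 and 22 reads in siEGFP and 9 and 12 in siEgg, a ratio of 1.77 with a wide interval of 0.66 to 3.40. These reads rest on an inferred row length of 718 bases, where 359 also gave whole reads. All 3 had few input reads and a siEGFP ChIP above both inputs. The 4 that were not called ranged from Asator, a kinase related to tau tubulin kinase, at 0.88 (0.54 to 1.38) down to bt, the giant muscle protein projectin, at -0.25 (-0.51 to -0.04). The cytoskeletal linker Ank was at 0.62 and the kinase Dyrk3 at 0.28.

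Of the 4 members that act on RNA, on DNA repair or in protein turnover, 3 were enriched (75%, against 5.79% of all genes). Rad23, which carries ubiquitinated proteins to the proteasome and takes part in nucleotide excision repair, had 17 input and 44 ChIP reads in siEGFP and 26 and 28 in siEgg (chr4:308093-310822). Its log2 ratio was 1.51 (0.82 to 2.55). The eIF4E-binding protein 4E-T, a repressor of translation at chr4:951542-958392, had 43 and 87 reads in siEGFP and 49 and 56 in siEgg, a ratio of 1.21 (0.75 to 1.86). The gene gw, whose protein works with Argonaute in silencing by microRNAs, had 85 and 159 reads in siEGFP and 88 and 85 in siEgg (chr4:649041-660608). At 1.11 (0.80 to 1.58) gw was the lowest of the called members. Thd1, a thymine DNA glycosylase of base excision repair, completed the group with a ratio of -0.05 (-0.41 to 0.30).

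Synaptic, vesicle and transport proteins had 2 enriched members of 6 (33.3%, against 5.79% of all genes), Zip102B and Caps. Caps, which primes dense-core vesicles for release, lies at chr4:1230837-1271759. It had 64 input and 129 ChIP reads in siEGFP and 76 and 59 in siEgg, a log2 ratio of 1.20 (0.85 to 1.75). Syt7, a synaptotagmin and so a calcium sensor of membrane fusion, stood at 0.73 (0.16 to 1.43), and unc-13, needed to prime synaptic vesicles, at -0.01 (-0.26 to 0.24). The unc-13 value is one of the best counted, with 295, 286, 241 and 211 reads in siEGFP input, siEgg input, siEGFP ChIP and siEgg ChIP. Slip1, which binds the potassium channel Slowpoke, was at 0.47, and the GABA transporter Gat at -0.74 (-1.64 to -0.04).

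Of the 14 transcription and chromatin factors, 1 was enriched (7.14%, near the 5.79% of all genes), pho. This gene at chr4:1172469-1181628 encodes Pleiohomeotic, a DNA-binding protein that brings Polycomb complexes to their response elements. It had 19 input and 62 ChIP reads in siEGFP and 27 and 29 in siEgg, a log2 ratio of 1.83 (1.23 to 2.81). The group's median was 0.15, and its reads together gave 0.19 (0.08 to 0.31), the lowest sum of the 6 groups. It also had the longest median span of the 6, 19082 bases, and the part of span in that sum was not tested. The Pax factors of eye and sensory organ development were spread, with sv at 0.82 (0.41 to 1.34), ey at -0.08 (-0.78 to 0.59) and toy at -0.29 (-0.92 to 0.28). The Wnt pathway factors pan (the fly TCF) and lgs were at 0.30 (0.03 to 0.61) and 0.03 (-0.48 to 0.53), and ci, the Hedgehog pathway factor, was at 0.24 (-0.23 to 0.75). Mitf, a regulator of lysosomal genes, stood at 0.66 (0.10 to 1.38), and Hcf, a subunit of several chromatin complexes, at 0.51 (0.26 to 0.81). Sox102F, a factor with an HMG box, was the lowest of all 49 at -0.99 (-1.73 to -0.47), and the zinc finger factors dati and zfh2 were at -0.42 and -0.47. Between these, the Ski family member fuss and the homeodomain factor onecut were at 0.20 and 0.09.

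Among the 8 ligands, receptors and adhesion proteins, 1 was enriched (12.5%, against 5.79% of all genes), mGluR, the metabotropic glutamate receptor. It had 72 input and 138 ChIP reads in siEGFP and 86 and 65 in siEgg (chr4:936819-949441), a log2 ratio of 1.14 (0.80 to 1.65). The guidance receptors PlexB and PlexA, which bind semaphorins, were at 0.34 (0.05 to 0.65) and 0.05 (-0.32 to 0.43). Ephrin and its receptor Eph were at 0.37 and 0.32, the TGF-beta family ligands mav and myo at 0.20 and -0.24, and the immunoglobulin family member dpr7 at 0.14. Apart from PlexB, the intervals of these 6 spanned 0.

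The 9 members named only by number or by family had 1 enriched gene, CG11076 (11.1%, against 5.79% of all genes). Their median log2 ratio was 0.41. CG32850 fell just short of the 2-fold threshold, at 0.99 (0.73 to 1.29), and gw at 1.11 was the nearest member past it. CG32850 was also the member with the highest input, 19.4 RPKM in siEGFP, against a median of 5.82 over the 49. It had 168 input and 278 ChIP reads in siEGFP and 174 and 101 in siEgg. It overlaps PMCA, a calcium pump gene. CG33978 had 195 and 264 reads in siEGFP, a ratio of 0.69 (0.45 to 0.99), and CG31999 stood at 0.73 (0.28 to 1.29). At the other end CG33521, with 41 and 16 reads, was at -0.95 (-2.01 to -0.21), while CG1909, CG31998, CG32006 and yellow-h lay between 0.09 and 0.41 with intervals that spanned 0.

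Across the role groups, levels of the enriched and the other members were set side by side. Per length, the 12 enriched members had 3.45 to 6.69 RPKM in the siEGFP input (median 4.91) and 12.2 to 39.6 RPKM in the siEGFP ChIP (median 13.8). The other 37 had 3.93 to 19.4 RPKM in that input (median 6.41) and 3.10 to 39.0 RPKM in that ChIP (median 6.61). In the siEgg ChIP the enriched members came down to 5.21 to 8.93 RPKM (median 7.40) and the others were at 4.66 to 17.0 RPKM (median 7.07). The enriched members were picked on the siEGFP ratio, so these siEGFP values describe the choice. Across the 49, the Spearman correlation of the siEGFP ratio with the siEGFP input RPKM was -0.40, and both values share that input.

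**Figure D2:**
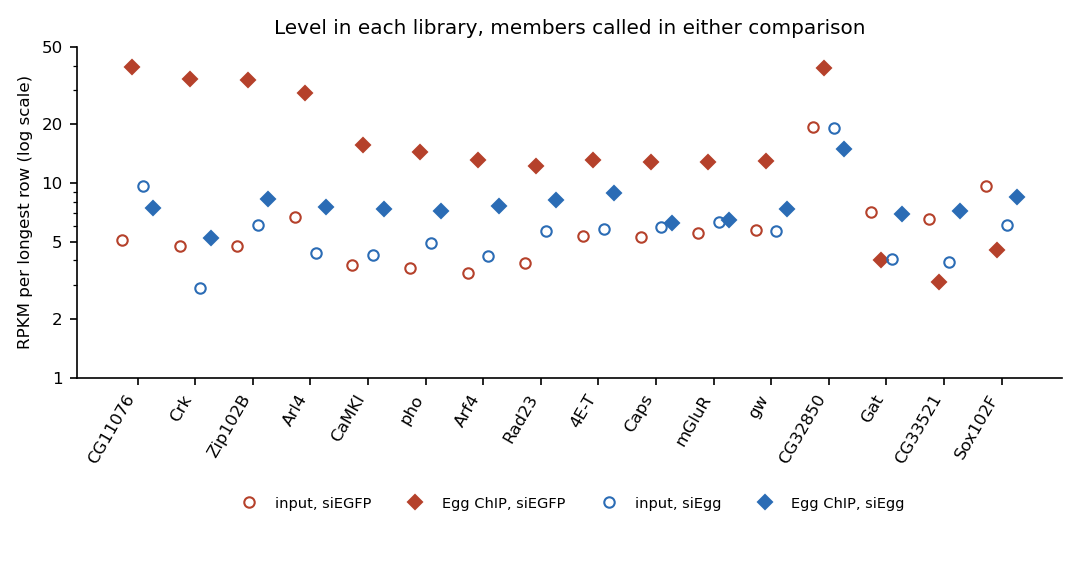
RPKM (log scale) in each of the 4 libraries for the 16 members called enriched in siEGFP or called lower or higher in siEgg, 1 point per library. In the first 12 genes, which are the enriched members, the siEGFP ChIP (filled red) is the highest of the 4 points, and in Gat, CG33521 and Sox102F it lies below the siEGFP input.

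Knockdown of Egg asks how much of the ChIP signal depends on the protein. In siEgg cells, 1 of the 49 members was enriched (2.04%, near the 1.40% of all genes tested), CG32006, and none was depleted (1.19% of all genes). CG32006 had 17 input and 15 ChIP reads in siEGFP and 11 and 20 in siEgg, and its siEgg ratio was 1.14 (0.17 to 2.50). The median over the members was 0.21, and their 4182 input and 3492 ChIP reads together gave 0.17 (0.11 to 0.24), against 0.51 in control cells. An interval above 0 was found for 9 members in siEgg, against 2.94% of all genes.

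The change is the siEgg log2 ratio minus the siEGFP log2 ratio. It was called lower in 8 members (16.3%), against 3.42% of all genes tested, and higher in 3 (6.12%), against 5.13%. The share called higher was thus near that of all genes. The change was negative in 33 of the 49, with a median of -0.18, whereas the median over all genes tested was 0.22. With quantile scaling these medians were -0.35 and 0.03, and with ratios centred on the median gene -0.44 and -0.04. Over summed reads the change was -0.33 (-0.42 to -0.24) for the members and 0.13 (0.12 to 0.14) for all genes. Intervals of the change lay wholly below 0 for 14 members (4.17% of all genes) and wholly above 0 for 4 (7.83% of all genes).

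CG11076 had the largest fall of the 49 members, -3.17 (-4.36 to -1.99), then Zip102B at -2.29 (-3.11 to -1.47) and Crk at -1.97 (-3.43 to -0.51). The intervals of these 3 overlap. On the ChIP libraries alone Crk came first, at -2.58, then CG11076 at -2.32 and Zip102B at -1.96, so their order is not resolved. With the inputs, pho fell by 1.34, CG32850 by 1.32 (-1.77 to -0.88 on the signed scale), CaMKI by 1.18, Caps by 1.14 and mGluR by 1.11. Of these 8 members, 7 were enriched in control cells (87.5%), and the other was CG32850, which missed the enrichment threshold. Conversely, 7 of the 12 enriched members were called lower (58.3%). The 5 that were not called had changes of -1.31 (-2.68 to 0.06) for Arl4, -1.02 (-2.12 to 0.09) for Rad23, -0.999 (-2.70 to 0.70) for Arf4, -0.75 (-1.33 to -0.18) for gw and -0.63 (-1.39 to 0.13) for 4E-T. These intervals do not show that the 5 kept their signal. Both values of a change share the siEGFP ratio that picked the enriched members, so the overlap of the lists is in part fixed by that choice and was given no test. With quantile scaling of the libraries the lower calls of CG32850, CaMKI, Caps, Crk and mGluR were lost, with changes of -0.68, -0.84, -0.95, -1.42 and -0.93, and a larger pseudocount ended those of pho, CaMKI, Caps and mGluR.

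Falls were also present below the thresholds. The changes of CG33978 (-0.80, -1.21 to -0.39), Asator (-0.74, -1.31 to -0.17), Syt7 (-0.95, -1.82 to -0.08), Mitf (-0.91, -1.77 to -0.05) and CG31999 (-0.70, -1.37 to -0.03) had intervals that excluded 0 without reaching 2-fold. By contrast Hcf changed by -0.11 (-0.49 to 0.27), Ank by -0.15 (-0.65 to 0.34) and PlexB by 0.20 (-0.21 to 0.61), although each had a siEGFP interval above 0. For these 3 genes the interval of the change excludes a 2-fold fall, within counting error.

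The ChIP libraries were also compared alone. Without the inputs, the siEgg ChIP was lower than the siEGFP ChIP for all 12 enriched members, and for 10 of them the interval excluded 0. These 12 were picked for a high siEGFP ChIP, so that direction is in part fixed by the choice. Among all 49, 16 members had such an interval below 0 (8.41% of all genes tested did) and 3 had one above 0 (9.74% of all genes). Called at 2-fold on the ChIP libraries alone, 6 members were lower (4.87% of all genes tested were), with Caps, mGluR and pho lost and Arl4 gained. Across the 49, the change had a Spearman correlation of -0.55 with the log2 ratio of the siEgg to the siEGFP input, which the change contains. For CG11076 that input ratio was 0.85 (-0.05 to 1.97). The 2 inputs differed beyond counting error for 2 members, Gat and Sox102F, against 4.64% of all genes.

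Those 2 genes and CG33521 were the 3 members called higher in siEgg, and all 3 lay below the input in control cells. The change subtracts the siEGFP ratio, so picking genes by a rise favours low siEGFP ratios. Their place below the input is thus in part fixed by that choice. Sox102F (chr4:800436-834393) had 80 input and 31 ChIP reads in siEGFP and 53 and 55 in siEgg, and its change was 1.44 (0.64 to 2.25). CG33521 (chr4:1185768-1192985) had 41 and 16 reads in siEGFP and 26 and 35 in siEgg, a change of 1.72 (0.63 to 2.82). Gat (chr4:629691-635350) had 45 and 21 reads in siEGFP and 27 and 34 in siEgg, a change of 1.42 (0.39 to 2.46). In all 3 the siEgg input was lower and the siEgg ChIP higher than its siEGFP counterpart. On the ChIP libraries alone the 3 changes were 0.83, 1.07 and 0.70, of which 1, that of CG33521, was past 2-fold. The part of the inputs in these rises was not tested further.

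Next, the position of the members along the chromosome was examined by cutting the distance between the first and the last start into 3 equal stretches and placing each gene by its start. In the first, with 18 members from PlexB to dati, 4 were enriched and the summed log2 ratio was 0.73 (0.63 to 0.82). In the middle stretch, with 17 members from lgs to Sox102F, 2 were enriched and the sum was 0.15 (0.04 to 0.26). In the last, with 14 members from unc-13 to Caps, 6 were enriched and the sum was 0.60 (0.48 to 0.73). The enriched shares of the 3 stretches were 22.2%, 11.8% and 42.9%, against 5.79% of all genes. The intervals of the first and last stretches overlapped, and that of the middle lay below both. The middle also holds long genes with many reads and low ratios, bt, zfh2 and Thd1 among them. The summed change in siEgg followed the same pattern, with -0.48 (-0.62 to -0.34), -0.07 (-0.22 to 0.08) and -0.41 (-0.59 to -0.23). Change and siEGFP ratio share the siEGFP libraries, so this is not separate evidence.

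**Figure D3:**
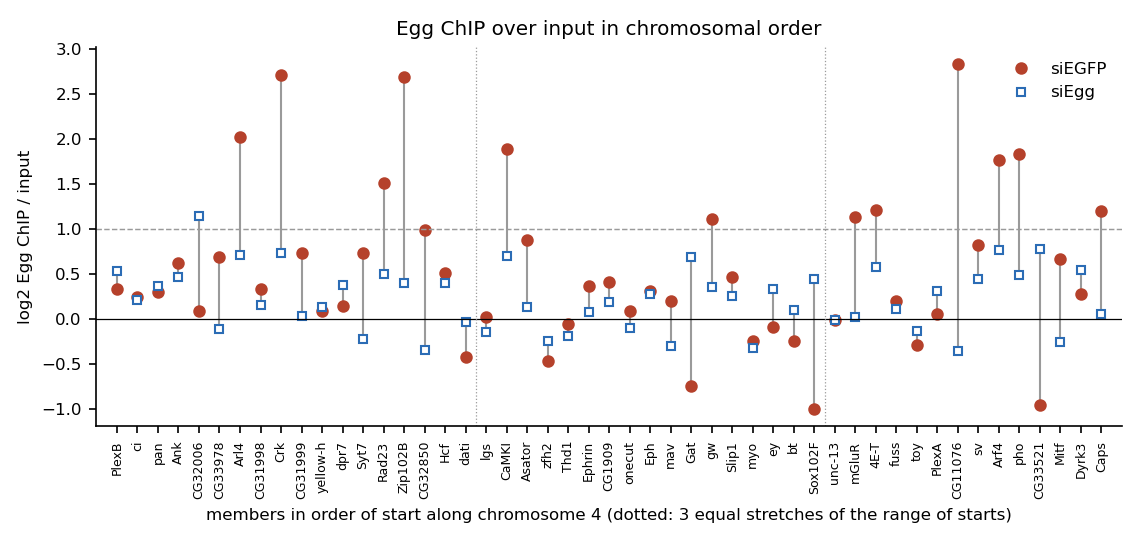
Log2 ratio of Egg ChIP to input for the 49 members in the order of their starts along chromosome 4 (red, siEGFP; blue squares, siEgg; grey lines join the values of a gene), with dotted lines between the 3 equal stretches of the range of starts and a dashed line at 2-fold. Enriched members stand among members near 0, and the middle stretch has 2 of the 12.

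High and low members were interleaved. Between neighbours in the list of 49, 3 pairs were both enriched, namely Rad23 with Zip102B, mGluR with 4E-T, and Arf4 with pho, and 6 enriched members had no enriched member beside them. Rad23 and Zip102B are separated by 107 bases, and CG11076 starts 2609 bases beyond PlexA, whose ratio was 0.05 (-0.32 to 0.43). The rank of a member along the chromosome had a Spearman correlation of -0.08 with its siEGFP ratio.

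The enriched members were mostly short for this set, a comparison described by counts and not tested. Short is meant relative to the 49, since the median span over all genes tested was 2458 bases. Of the 25 members spanning at most 11301 bases, the members' median span, 9 were enriched (36%, against 5.79% of all genes). The reads of these 25 together gave a log2 ratio of 0.80 (0.69 to 0.92). Of the 24 longer members, 3 were enriched (12.5%), gw, mGluR and Caps, and the sum was 0.38 (0.30 to 0.45). The medians of single members did not show the difference, at 0.34 for the short and 0.41 for the long genes. Across the 49, ratio and span had a Spearman correlation of -0.30, compared with -0.08 over all genes tested. Short genes also have fewer reads, so a high ratio there rests on fewer counts: the 9 short enriched members had 7 to 43 siEGFP input reads.

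Each gene in the table has a row for each of its transcripts. A row was taken to hold reads of that transcript's exons, and the reads of a gene to be shared out over its rows. How reads were counted per row is not given in the sources used here. Of the 180 rows of the members, 136 had enough reads to be tested. Of these, 23 were enriched in siEGFP (16.9%, against 5.18% of all rows tested), 13 were lower in siEgg (2.41% of all rows) and 5 were higher (3.47%). Depleted in siEGFP were 2 rows (7.57% of all rows), 1 each of Gat and CG33521. In siEgg 4 rows were enriched (1.63% of all rows) and none was depleted (1.53%). The 23 rows belonged to 18 members, 9 of which were not enriched as genes. Row values were examined after the gene values were known, and the ratios in the rest of this account of rows are taken from reads per library with no RPKM added.

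In several genes 1 transcript row carried most of the ChIP reads. The 6807-base row of gw had 30 input and 109 ChIP reads in siEGFP and 28 and 32 in siEgg. It held 68.6% of the siEGFP ChIP reads of gw and 35.3% of the input reads. Its log2 ratio was 2.14 (1.55 to 2.78), while the other 5 rows together had 55 and 50 reads and 0.14 (-0.44 to 0.72). Within gw, the siEGFP excess was in the reads given to its longest row, and where in that row they lay was not examined. The 3382-base row of CaMKI had 9 and 72 reads in siEGFP and 13 and 22 in siEgg. It held 75.8% of the ChIP reads with 32.1% of the input, a ratio of 3.28 (2.28 to 4.47), and the other 4 rows together were at 0.56 (-0.38 to 1.51). In pho, too, the longer of the 2 rows led, with 12 and 51 reads and 2.37 (1.44 to 3.41), against 0.93 (-0.57 to 2.54) for the other, and these intervals overlap.

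For other enriched members the ChIP reads were spread over the rows. In Zip102B the longest row had 16 input and 117 ChIP reads, a log2 ratio of 3.15 (2.39 to 4.00), and the other 3 rows together had 15 and 65, a ratio of 2.40 (1.57 to 3.31). In CG11076 the longest row was at 3.90 (2.45 to 5.83) and the other 2 at 2.32 (1.30 to 3.48). In Caps a 5079-base row, not the longest, had 11 and 53 reads and 2.55 (1.60 to 3.64), and its other 4 rows together were still at 0.80 (0.28 to 1.34). None of the 7 rows of Crk reached the read minimum, so its ratio is known for the gene as a whole only. The row with most siEGFP ChIP reads was the longest row in 11 of the 12 enriched members, it held over 50% of these reads in 8, and the remaining rows had an interval above 0 in 7. Among members that were not enriched, that row was the longest in some, such as dpr7, PlexB, Ephrin and toy. In others, such as CG32850, Gat, pan and zfh2, it was not the longest. The share over the other members was not counted, so this is not shown to be particular to the enriched ones. The leading row was picked for its ChIP reads, so these ratios describe and carry no test.

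**Figure D4:**
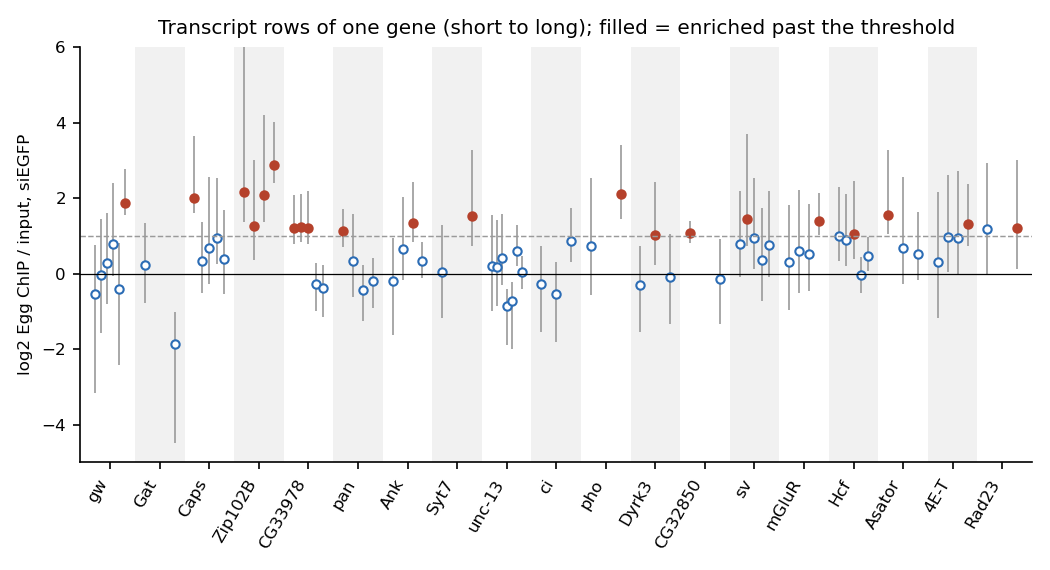
Log2 ratio of Egg ChIP to input in siEGFP, with 0.6 RPKM added, for each tested transcript row of 19 members, ordered from short to long within a gene; bars are 95% counting intervals, running past the top of the axis for 1 row of Zip102B, filled points are rows called enriched and the dashed line marks 2-fold. In gw and pho the longest row leads, the 4 rows of Zip102B are all filled, and the longer row of Gat lies far below 0.

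Transcript rows also set apart some members with low gene values. In pan, a 3795-base row had 52 input and 98 ChIP reads in siEGFP and 72 and 51 in siEgg, a log2 ratio of 1.20 (0.70 to 1.71), while the other 8 rows together were at -0.19 (-0.57 to 0.18). CG32850 had nearly all of its signal, 95.3% of the ChIP reads, in its shorter row of 2311 bases, which also held 89.3% of the input reads. That row had 150 and 265 reads in siEGFP and 156 and 79 in siEgg, and the other row had 18 and 13. In Gat the 2 rows parted in the other direction. The 2853-base row was at 0.28 (-0.78 to 1.34), and the 2895-base row had 28 input and 4 ChIP reads in siEGFP and 13 and 22 in siEgg, a siEGFP ratio of -2.53 (-4.50 to -1.01). Of the 38 members with at least 2 tested rows, 7 had rows whose siEGFP intervals did not overlap (4.81% of all genes with at least 2 tested rows did), namely gw, Gat, Caps, CG33978, pan, unc-13 and ci. Members had more rows (median 3, against 2 over all genes tested) and more reads than most genes. Both make such intervals part more readily, so the shares are not a like comparison.

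Lastly, the members were set beside the rest of chromosome 4 and beside other genes near heterochromatin. Of 37 further chromosome 4 genes with enough reads, 12 were enriched (32.4%), the median log2 ratio was 0.72 and the sum 0.59 (0.51 to 0.68). Among them were lncRNA:CR45201 at 4.66 (3.18 to 7.10), lncRNA:CR44440 at 3.33 (2.61 to 4.55) and RpS3A, a ribosomal protein gene, at 2.27 (1.53 to 3.41). These 3 ratios rest on 3, 11 and 13 siEGFP input reads. Of 212 genes near the centromeres of chromosomes 2, 3 and X, 55 were enriched (25.9%), with a median of 0.36 and a sum of 0.83 (0.80 to 0.87). Without those of the X, 54 of 167 were enriched (32.3%), and the sum was 0.99 (0.95 to 1.03). The arms outside these regions had 642 enriched genes of 12244 (5.24%) and a median log2 ratio of -0.31. The members' summed ratio of 0.51 (0.44 to 0.57) was below that of the pericentromeric genes with or without the X. With summed RPKM of rows the members' value was 0.80, and the pericentromeric genes were not recomputed that way. The members' median of 0.34 stood beside 0.36 with the X and 0.48 without it. Their share of 24.5% stood beside 25.9% and 32.3%, and whether these shares differ was not tested.

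The summed change in siEgg was -0.33 (-0.42 to -0.24) for the members, -0.26 (-0.38 to -0.14) for the other chromosome 4 genes, -0.49 (-0.54 to -0.43) for the pericentromeric genes (-0.58 without the X) and 0.16 (0.15 to 0.17) for the arms. The intervals of the members and of the other chromosome 4 genes overlapped. No test of the difference between these classes was made, since each rests on the same 4 libraries.

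**Figure D5:**
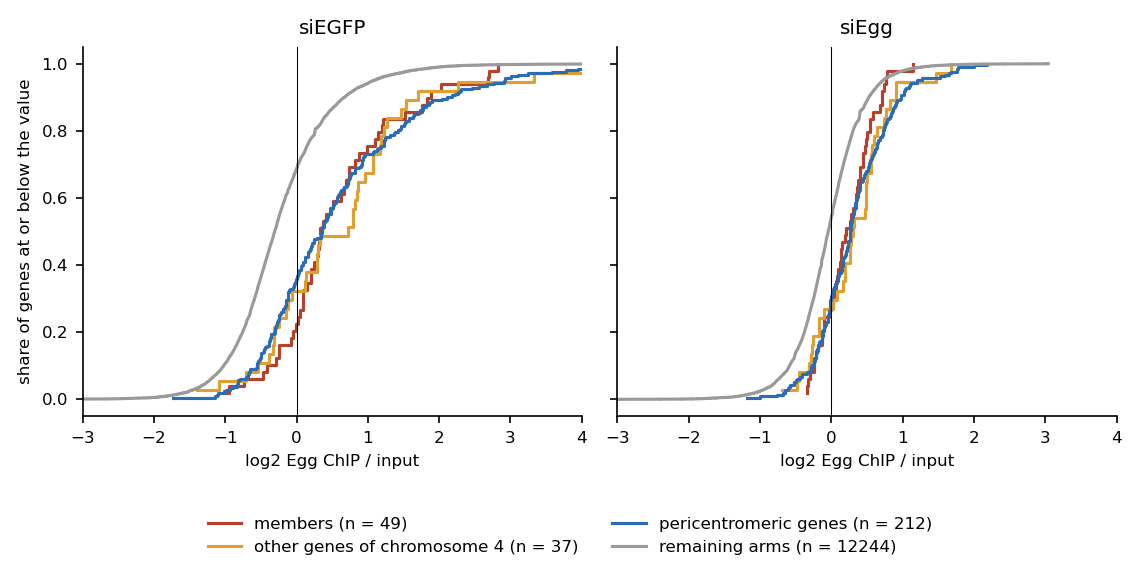
Cumulative share of tested genes at or below each log2 ratio of Egg ChIP to input, in siEGFP (left) and siEgg (right), for the 49 members, the other genes of chromosome 4, genes near the centromeres and the remaining arms. In siEGFP the members' curve lies to the right of the arms (medians 0.34 and -0.31), and in siEgg the curves draw together (medians 0.21 and -0.05).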

How the data were processed

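Egg ChIP and input libraries of siEGFP and siEgg cells were read from 1 deposited table of 35502 transcript and transposon rows. Per the submitters' processing notes reads were mapped with Bowtie2 2.2.4 to dm6, and other steps are not given in the sources used here. The deposited values were treated as RPKM and scaled on 5S rRNA rows of 135 bases. Each row's length was chosen so that its values became whole reads. Such a length was found, within 0.0001 reads, for all 34762 rows above 0, and 740 rows were 0. Since lengths were chosen for this, it is no separate check of the depths. For 453 rows, a row of Arf4 among them, a multiple of the smallest such length was taken as more likely. Depths and intervals rest on the 5S rRNA anchor. A planned model with replicates was not possible with 1 column per group, and its place was taken by counting intervals.

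Rows were matched to genes in RefSeq (Release 6), 34925 by accession and 167 by symbol. Reads of a gene's rows were summed and divided by its longest row. Genes needed 10 reads in 2 libraries and RPKM above the pseudocount of 0.6 (from the median siEGFP input of 6.49) in 2. Intervals of ratios were exact (Clopper-Pearson), taken without the pseudocount, and for changes the normal approximation was applied after adding 0.5 to every count. Calls needed a log2 size of 1 and a 95% interval excluding 0. Pericentromeric genes lay on 2L from 22 Mb, 2R to 6 Mb, 3L from 23 Mb, 3R to 4 Mb or X from 22 Mb. The calculation was tested on simulated data. All members are given; those described most fully are the members called in either comparison and those just outside a threshold. The members, their role groups and the tests were chosen with earlier results of these data known. Python 3.11.15, numpy 2.4.6, pandas 2.3.3, scipy 1.17.1 and matplotlib 3.10.9 were used.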

Additional observations from a re-analysis of the deposited data

How the results depend on the processing

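There were 12 alternatives, 2 of them added after the values were seen (summed RPKM of rows, and members overlapping no other gene). No called value and no summed or median value of the members changed sign. Among values that were not called, the siEGFP ratio of ey went from -0.08 to 0.21. The change of zfh2 went from 0.23 to -0.16 (quantile scaling) or -0.03 (centred). The 12 enriched members became 6 when 20 reads were required in each input, which left 40 members (2.64% of all genes enriched), and 20 when a 1.5-fold ratio sufficed (8.13% of all genes). The median ratio of 0.34 became 0.43 with quantile scaling, 0.63 when centred on the median gene and 0.41 on the row with most reads. The summed ratio of 0.51 became 0.42 with 20 reads, 0.34 with quantiles, 0.80 centred, 0.69 on the row with most reads, 0.80 with summed RPKM and 0.57 without overlaps. The 8 lower members became 4 with a pseudocount 5 times larger (1.5% of all genes), 5 with 20 reads (2.38%), 4 with quantiles (2.90%), and 14 both centred (6.16%) and at 1.5-fold (4.04%). The 3 higher became 1 (CG33521) with pooled inputs and, by construction equally, with ChIP alone (3.59% of all genes), and stayed 3 when centred, where 1.99% of all genes were higher. The median change of -0.18 became -0.35 with quantiles, -0.44 centred and -0.33 on the row with most reads, and the summed change of -0.33 became -0.16, -0.59 and -0.55, and -0.59 with summed RPKM. Scaling moved the median of all genes from -0.29 to -0.06 (quantiles) or 0 (centred), so a ratio's distance from 0 depends on the scaling. The median change of all genes went from 0.22 to 0.03 (quantiles) or, with the other sign, -0.04 (centred). Quantile scaling ended the enriched calls of gw and mGluR and the lower calls of CG32850, CaMKI, Caps, Crk and mGluR, and gained that of Mitf. The 20-read filter removed Arf4, Arl4, CG11076, Crk, Rad23 and pho. Of 400 values for 20 named members, 348 kept direction and call, 4 kept the lack of a call with the other sign, 29 lost a call and 19 gained one. The causes were not tested. No paired analysis was possible because the columns carry no replicate number, and for the same reason no replicate was left out. Promoter motifs were not run.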
